A study of Homo sapiens with 11 samples.

Results

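Imprinted genes are expressed mainly from the copy inherited from one parent. A list of 37 of them in 16 chromosomal domains was examined for binding of CTCF, a zinc finger protein that marks chromatin boundaries, as mapped by CUT&RUN. In this assay a nuclease tethered to an antibody cuts out the DNA around the bound protein. CTCF summits, the single bases at which the authors placed their peaks, were taken when they lay inside a listed gene on the hg38 human genome or within 50 kb of it. The ORC2 deletion list held 70 such summits of 31112, the ORC2 rescue list 42 of 20810 and the WT list 42 of 19044. Of the 37 genes, 34 code for proteins and 3, H19, KCNQ1OT1 and MEG3, are long noncoding RNAs. The genes were set against all 19974 protein-coding genes of chromosomes 1 to 22 and X.

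All cells were HCT116 p53-/-, a human colorectal cancer line without p53. The ORC2 deletion cells were 1 clone made with CRISPR/Cas9, and the ORC2 rescue cells were clonally selected after ORC2 was put back on the plasmid pLHCXORC2. The WT cells were the parental line, which carries p53-/- too. ORC2 is a subunit of the origin recognition complex, which licenses DNA for replication, and the study asked what depends on it in chromatin and chromosome structure.

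The libraries numbered 11, with 2 for CTCF in each genotype, 2 for IgG in ORC2 deletion and in WT, and 1 for IgG in rescue. Each genotype has 1 CTCF list that names no replicate, so no difference below has a replicate check or a test, and the depth behind the lists is unknown. Intervals are 95% Wilson intervals and cover counting error only. The lists do not tell the parental copies apart and hold no RNA, so neither imprinting nor the ORC2 genotype could be checked in them. The IgG lists held 34 summits in ORC2 deletion, 33 in rescue and 17 in WT, and 0 of them lay near an imprinted gene. Of the CTCF lists, 0.225% in ORC2 deletion, 0.202% in rescue and 0.221% in WT lay there. IgG lists so short could hardly hold a summit there, so the 0 is no check of the sites.

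Imprinted genes are controlled in clusters by imprinting control regions, stretches of DNA that are methylated on the copy from one parent and not on the other. Methylation of the DNA can block CTCF from its site. At IGF2 and H19 it is known to bind the unmethylated maternal control region and to keep the enhancers from reaching IGF2, and at other imprinted clusters it has been linked to loops that differ between the parental copies.

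Deposited lists give positions, not bases, so sequence is shown where a summit or motif fell in a promoter window of RefSeq (GRCh38.p14), which runs from 250 bases before to 50 bases after a start. Of the 37 genes, 23 had such a window, 52 windows in all. The stretches are written 5′ to 3′ on the strand of the gene. The first 2 hold summit bases, in capitals. They are the TSSC4 promoter beside KCNQ1 (chr11:2400500-2400529, plus strand), which carries a summit in all 3 lists (the first capital in ORC2 deletion and rescue, the other in WT), and the UBE3A promoter (chr15:25439253-25439282, minus strand), which carries one in ORC2 deletion alone. In the third, capitals mark a GC-rich unit that recurs 5 times in an L3MBTL1 promoter window (chr20:43514191-43514220, plus strand). The last, in another UBE3A window (chr15:25438314-25438343, minus strand), is shown because it holds a match, in capitals, to CCANNAGNNGGC, a short form of the CTCF core motif searched on both strands.
TSSC4: TgttCttggtcaattccggtcttgtttccc
UBE3A: cctttctgtccagtCgcaagatggcgaccg
L3MBTL1: ttgagtgagggactctcGGGGCGTGGCTTg
UBE3A motif: gggctggtgCCAGAAGTAGGCccctggtgg

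The motif stood in 2 of the 52 windows of listed genes and in 844 of all 34961 promoter windows, 2.41%. The match in UBE3A did not lie at a summit, and its window was 789 bp from the nearest ORC2 deletion summit. The unit in L3MBTL1 was found in 25 of the 34961 windows, 0.0715%, and in 1 window, this one, as many as 5 times. The nearest summits lay just outside it, at 35 bp in ORC2 deletion, 20 bp in rescue and 47 bp in WT.

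CTCF summits near imprinted genes were more numerous in ORC2 deletion than in WT cells, by as much as in the whole lists. The 70 summits of ORC2 deletion and 42 of WT gave a ratio of 1.67, beside 1.63 over the whole lists. With −log10 q, the strength of a peak call, of at least 10 the ratio was 3.38, beside 2.76 over the whole lists. It then rested on 27 summits in ORC2 deletion and 8 in WT, with values that are not scaled between lists. With the strongest 19044 summits of each list, which sets the ratio of the whole lists to 1.0 by construction, it was 0.952. Rescue cells, with 42 summits, had as many as WT, a ratio of 1.00 beside 1.09 over the whole lists. At −log10 q of at least 10 that ratio was 1.62, 13 summits over 8, beside 1.26. Rescue had 0.6 times as many summits as ORC2 deletion, beside 0.669 over the whole lists. The imprinted genes and their flanks cover 5.93 Mb, with 11.8 summits per Mb in ORC2 deletion, 7.08 in rescue and 7.08 in WT. Over the 1863.1 Mb of all protein-coding genes and their flanks the densities were 14.3, 9.66 and 8.82 per Mb in the same lists. Of the summits near imprinted genes, 27 in ORC2 deletion, 20 in rescue and 15 in WT lay inside the body of a listed gene. Summits inside other genes are not in these counts, and no such count was made over the whole lists.

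The number of summits differed widely between the genes. TRAPPC9 had 10 summits in ORC2 deletion, 7 in rescue and 6 in WT, and IGF2 had 8 in ORC2 deletion, 4 in rescue and 5 in WT. The median gene had 2 summits in ORC2 deletion, 0 in rescue and 1 in WT, beside 3, 2 and 2 for protein-coding genes. At least 1 summit stood near 27 of the 37 genes in ORC2 deletion, 73.0% beside 84.4% of protein-coding genes. In rescue it was 18 of 37, 48.6% beside 76.8%, and in WT 23 of 37, 62.2% beside 75.8%. All 3 lists held a summit near 17 genes, 45.9% beside 70.7% of protein-coding genes. No list held one near 7 genes, 18.9% beside 13.8%. Genes of 1 domain share flanks and summits, so these counts are not of independent items.

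Between ORC2 deletion and WT, 23 of the 37 genes had more summits in ORC2 deletion, 62.2% beside 59.5% of protein-coding genes, and 4 had fewer, 10.8% beside 5%. Those 4 were CDKN1C, PHLDA2, SLC22A18 and NAP1L5. Between rescue and WT, 7 genes had more in rescue, 18.9% beside 30%, and 9 had fewer, 24.3% beside 20.2%. Between rescue and ORC2 deletion, 23 had fewer in rescue, 62.2% beside 56%, and 0 had more, beside 5.67%.

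**Figure D1:**
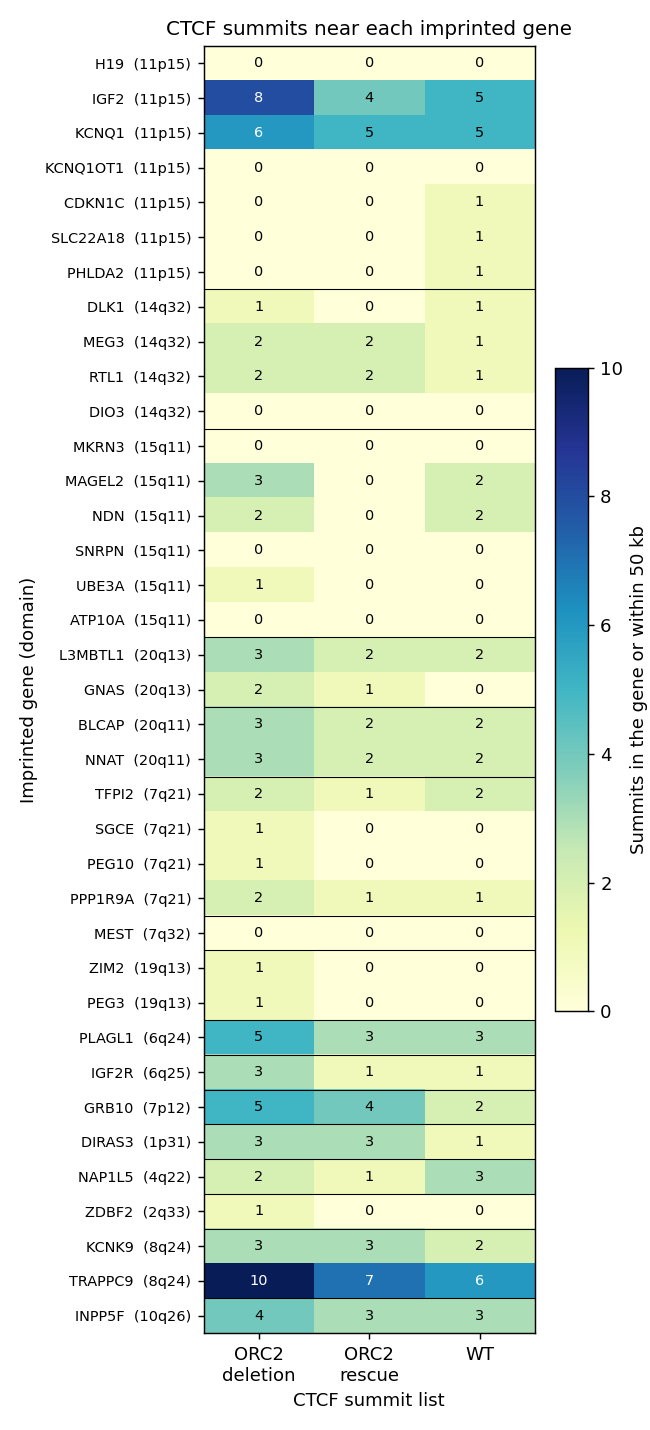
Number of CTCF summits in each imprinted gene or within 50 kb of it (colour and digits), by gene and domain from top to bottom and by CTCF list from left to right, with 1 list per genotype. TRAPPC9 holds 10, 7 and 6 summits in ORC2 deletion, rescue and WT, and 7 genes hold 0 in each list.

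Summits within 500 bp of each other were counted as 1 site, which gave 75 sites near the imprinted genes and 34769 in all. All 3 lists held 32 of the 75, 42.7% (32.1 to 53.9) beside 40.6% of all sites. ORC2 deletion alone held 23, 30.7% (21.4 to 41.8) beside 27.3%, and ORC2 deletion and rescue without WT held 9, 12% (6.44 to 21.3) beside 13%. ORC2 deletion and WT without rescue held 6, 8.0% beside 8.43%. WT alone held 4, 5.33% beside 4.49%, rescue alone held 1, 1.33% beside 5.0%, and rescue and WT without ORC2 deletion held 0, beside 1.18%. Each share of all sites lies inside the interval of the imprinted genes.

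**Figure D2:**
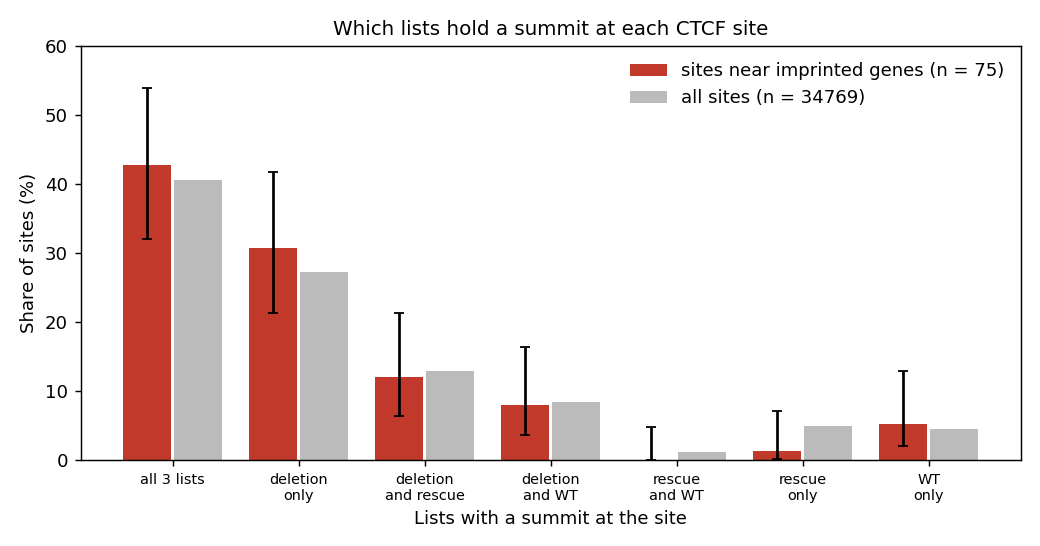
Share of CTCF sites (%, vertical axis) held by each combination of the 3 lists (horizontal axis), for the 75 sites near imprinted genes (red, with 95% Wilson intervals) and all 34769 sites (grey). Sites in all 3 lists make up 42.7% near imprinted genes and 40.6% of all sites, and the grey bars lie inside the red intervals.

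Of the 70 ORC2 deletion summits near imprinted genes, 32 had no WT summit within 500 bp, 45.7% (34.6 to 57.3) beside 45.2% of the whole list. Of the 42 rescue summits, 10 had no WT summit, 23.8% (13.5 to 38.5) beside 30.2%, and 1 had no ORC2 deletion summit, 2.38% (0.422 to 12.3) beside 10.4%. Of the 42 WT summits, 4 had no ORC2 deletion summit, 9.52% (3.77 to 22.1) beside 10.5%, and 10 had no rescue summit, 23.8% beside 23.8%. Where an interval is given, the share of the whole list lies inside it. The 2 rescue shares were below those of the whole list, and the 2.38% rests on 1 summit. With matching within 100 bp the shares without a WT partner were 65.7% in ORC2 deletion and 57.1% in rescue, and 42.9% of WT summits had no ORC2 deletion partner. At that distance 24 of the 70 ORC2 deletion summits had a WT partner, beside 11548 of 31112 in the whole list. In rescue 18 of the 42 had one, beside 9729 of 20810. The WT share at 100 bp was not computed over the whole list. With lists of equal length 25% of ORC2 deletion summits had no WT partner and 28.6% of WT summits no ORC2 deletion partner, beside 25.3% and 25.3% over the whole lists. At −log10 q of at least 10 the ORC2 deletion share was 70.4%, 19 of 27 summits, beside 66.8%. The WT share was 0.0%, 0 of 8 summits, beside 8.35%. Counts this small leave both shares uncertain, and no interval was computed for them. Of the 32 ORC2 deletion summits without a WT partner, 9 had a rescue summit, 28.1% (15.6 to 45.4) beside 32.3%. Of the 4 WT summits without an ORC2 deletion partner, 0 had a rescue summit, which allows up to 49.0% and stands beside 21.6%.

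The authors' deposited up list held 23 of the 70 ORC2 deletion summits, 32.9% (23 to 44.5) beside 30.9% of the whole deletion list. These 23 summits were the 23 sites held by ORC2 deletion alone. The counts were close over the whole data too, with 9603 deletion summits in the up list and 9502 sites held by ORC2 deletion alone. The match is therefore not read as a trait of imprinted genes or as separate evidence. The overlap itself was not computed over the whole list. The authors' deposited down list held 0 of the 42 WT summits, which allows up to 8.38% and stands beside 1.92% of the WT list. How the authors made those lists is not given in the sources used here.

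A summit's −log10 q is the authors' value in its own list. It is not scaled between lists, so below it is given for each list and used to rank sites within a list. The minimums set on it above were the same for every list, so the ratios and shares given at a minimum compare unscaled values. The depth behind the lists is unknown, and its part in those ratios and shares was not tested. In ORC2 deletion the 38 summits with a WT partner had a median of 13.5, beside 12 for such summits of the whole list, and the 32 without one had 4.37, beside 5.05. Among those 32, the 9 with a rescue summit had a median of 6.92, beside 7.14, and the 23 with neither had 4.12, beside 4.36. In WT the 4 summits without an ORC2 deletion partner had a median of 2.63 and the 38 with one 6.24.

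**Figure D3:**
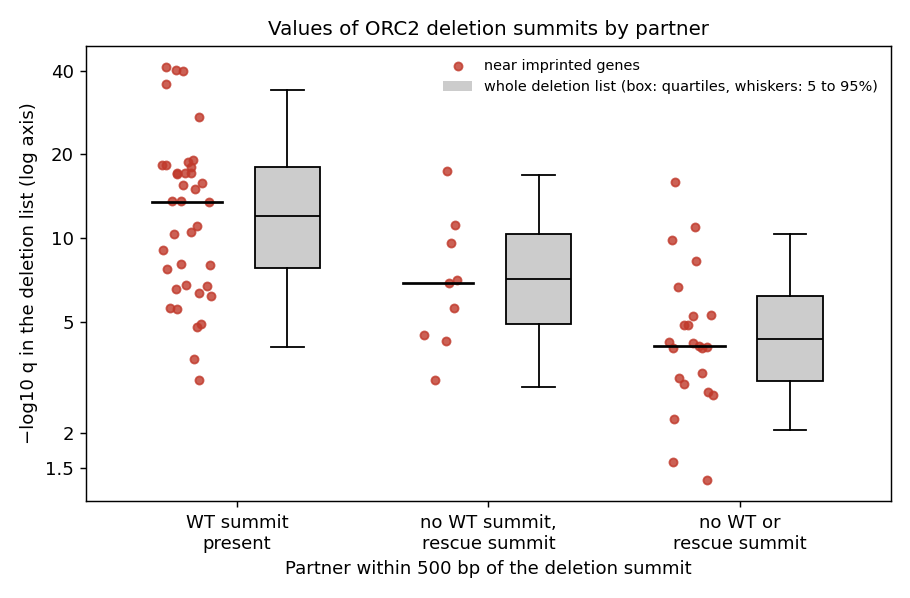
The −log10 q of ORC2 deletion summits (log axis) by whether WT or rescue cells had a summit within 500 bp. Red points are the 70 summits near imprinted genes with their median as a bar, and grey boxes the whole deletion list. The medians of the red points are 13.5, 6.92 and 4.12 from left to right.

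In the 11p15 domain the listed genes were IGF2, a fetal growth factor expressed from the paternal copy, H19, a maternally expressed long noncoding RNA, and 5 genes of the neighbouring KCNQ1 cluster. The domain had 14 summits in ORC2 deletion, 9 in rescue and 10 in WT. The strongest lay 2.19 kb beyond IGF2, within the readthrough gene INS-IGF2, at 2151939 in ORC2 deletion (−log10 q 39.9), 2151967 in rescue (42.7) and 2151760 in WT (41.0). It exceeded 98.1% of the ORC2 deletion list, 99.0% of the rescue list and 99.2% of the WT list. A further strong site, 45.6 kb from IGF2, had 27.3 at 2195182 in ORC2 deletion, 22.6 at 2195179 in rescue and 15.2 at 2195154 in WT. Both sites were thus called in all 3 genotypes. Of the 8 IGF2 sites, 4 were in all 3 lists, 1 was in ORC2 deletion and WT, and 3 were in ORC2 deletion alone. Those 3 were weak calls, with 4.06 at 2156836, 2.98 at 2173421 and 4.88 at 2197222.

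No list held a summit within 50 kb of H19. The nearest lay 76.2 kb away in ORC2 deletion, at 2077503 with a −log10 q of 3.73, and 113 kb away both in rescue, at 1882493 (7.6), and in WT, at 1882585 (6.71). The ORC2 deletion summit at 2077503 was in the authors' deposited up list and was the only summit of any list between H19 and IGF2. The H19 control region, where CTCF is known to bind one parental copy, lies beside H19, and the 3 lists therefore called no peak there.

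The KCNQ1 cluster is governed by KCNQ1OT1, a noncoding RNA transcribed from inside KCNQ1, a potassium channel gene. Within KCNQ1, summits stood only toward its lower-coordinate end. The strongest site near it, inside the neighbour TRPM5, had 18.7 at 2428185 in ORC2 deletion, 15.3 at 2428260 in rescue and 12.3 at 2428312 in WT. The TSSC4 promoter site printed above had 7.74 at 2400500 in ORC2 deletion, 13.7 at 2400500 in rescue and 8.03 at 2400504 in WT. Inside KCNQ1, a site called in all 3 genotypes at 2531643 in ORC2 deletion had another beside it, at 2532854 in ORC2 deletion (11.1) and 2532868 in rescue (5.4), that WT lacked. A site in TRPM5 at 2419748 (9.82) was in ORC2 deletion alone.

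From there no list held a summit until the far end of the cluster, and KCNQ1OT1 had none within 50 kb. Its nearest were 75.5 kb away in ORC2 deletion, 75.5 kb in rescue and 76.6 kb in WT. The far end holds CDKN1C, a maternally expressed inhibitor of cyclin-dependent kinases, SLC22A18, a membrane transporter, and PHLDA2, which restrains placental growth. A single WT summit at 2888552 (5.6), 2.78 kb from CDKN1C and inside SLC67A1-AS, served all 3 and lay within 50 kb of KCNQ1 as well. The nearest ORC2 deletion summit to it was 203344 bp away and the nearest rescue summit 203464 bp. These were the 3 imprinted genes with a summit in WT and none in ORC2 deletion, 8.11% beside 1.11% of protein-coding genes, and they rest on that 1 summit.

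**Figure D4:**
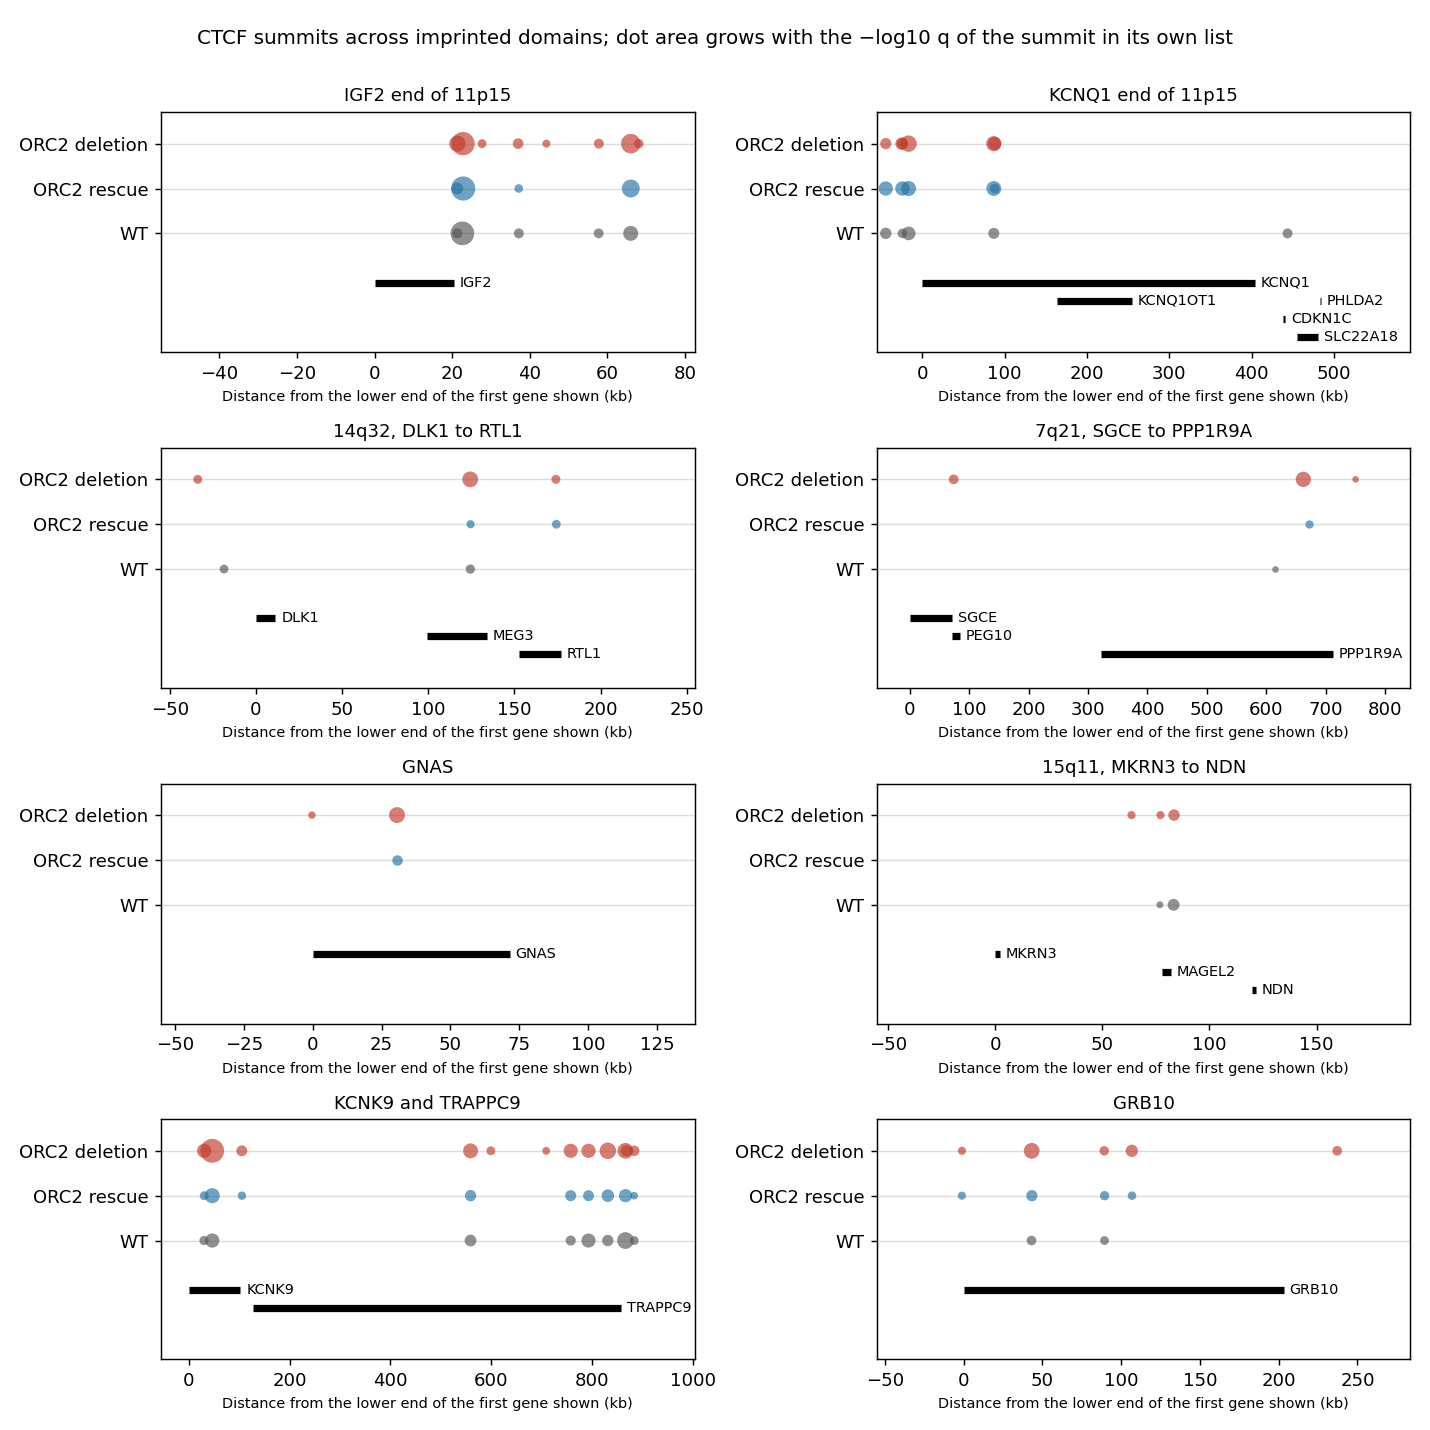
CTCF summits of ORC2 deletion, rescue and WT cells (rows) across 8 stretches with imprinted genes, by distance in kb from the lower end of the first gene (horizontal axis). Dot area grows with the −log10 q of the summit in its own list, and black bars are genes. The large dots beside IGF2 and in KCNK9 stand in all 3 rows, and the MKRN3 to NDN stretch has none in the rescue row.

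The 15q11 domain is known for the Prader-Willi and Angelman syndromes. Its listed genes were the paternally expressed MKRN3, MAGEL2, NDN and SNRPN, the last of which holds the control region, the ubiquitin ligase gene UBE3A, expressed from the maternal copy in neurons, and ATP10A, which encodes a lipid flippase. Near these 6 genes ORC2 deletion had 4 summits, rescue 0 and WT 2. Across the whole 2.4 Mb from MKRN3 to ATP10A with flanks, the counts were 5 in ORC2 deletion, 0 in rescue and 2 in WT. The strongest site near a listed gene, 1.1 kb from MAGEL2 and also within 50 kb of NDN, had 8.02 at 23649158 in ORC2 deletion and 8.8 at 23648970 in WT. A weaker one beside MAGEL2 had 3.1 at 23642830 in ORC2 deletion and 1.62 at 23642564 in WT. Rescue had neither, and its nearest summit was 151317 bp from the stronger and 144911 bp from the weaker one.

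ORC2 deletion alone had a summit at 23629336 (3.16) near MAGEL2 and one at 25439268 (2.81), 212 bp from UBE3A in the promoter shown above. MKRN3, SNRPN and ATP10A had no summit within 50 kb in any list. SNRPN lay in a stretch without summits of 1.79 Mb in ORC2 deletion, 4.73 Mb in rescue and 2.35 Mb in WT. Gaps between neighbouring summits at least that long numbered 124 of 31089 in ORC2 deletion, 26 of 20787 in rescue and 99 of 19021 in WT, this one included. The median gap was 36.1 kb in ORC2 deletion, 52.2 kb in rescue and 59.5 kb in WT. The nearest summits to MKRN3 were 61.3 kb away in ORC2 deletion, 68.0 kb in rescue and 74.5 kb in WT. Those to ATP10A were 170 kb away in ORC2 deletion, 2170 kb in rescue and 136 kb in WT.

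At 14q32 lie DLK1, a transmembrane protein related to Notch ligands, RTL1, derived from a retrotransposon, the noncoding RNA MEG3, and DIO3, a deiodinase that inactivates thyroid hormone. There were 3 summits near them in ORC2 deletion, 2 in rescue and 2 in WT. A site inside MEG3 was in all 3 lists, with 17.1 at 100851210 in ORC2 deletion, 3.16 at 100851413 in rescue and 4.72 at 100851304 in WT. A site inside RTL1 was in ORC2 deletion, 4.26 at 100900947, and in rescue, 4.0 at 100901218, but not in WT. DLK1 had different sites in different genotypes. ORC2 deletion alone had one 33.8 kb away at 100693112 (4.12), and WT alone one 18.5 kb away at 100708370 (3.94). DIO3 had none within 50 kb, and its nearest were 65.3 kb away in ORC2 deletion, 102 kb in rescue and 65.3 kb in WT.

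A summit in ORC2 deletion and none in WT was found near 7 genes, 18.9% beside 9.72% of protein-coding genes. These were GNAS, PEG10, SGCE, PEG3, ZIM2, ZDBF2 and UBE3A. SGCE shared its summit with PEG10 and ZIM2 shared its with PEG3, so 6 sites lay behind the 7 genes. With lists of equal length the count was 3, a setting at which protein-coding genes were not recounted.

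GNAS encodes the stimulatory G protein alpha subunit and has several promoters with different parental expression. Its main site, inside the gene, had a −log10 q of 17.4 at 58870349 in ORC2 deletion and 6.42 at 58870401 in rescue. The nearest WT summit to it was 162456 bp away. It was the strongest of the 32 ORC2 deletion summits without a WT partner. A weak second, 278 bp outside GNAS at 58839470 (2.25), was in ORC2 deletion alone.

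PEG10, derived from a retrotransposon, and SGCE, which encodes epsilon-sarcoglycan, are paternally expressed and lie end to end at 7q21. They shared a site inside PEG10 at 94658780 (5.29) that was in ORC2 deletion alone. The nearest rescue summit to it was 209784 bp away and the nearest WT summit 222378 bp. PEG3 and ZIM2, zinc finger genes of 19q13, had 1 summit in ORC2 deletion, at 56764129 (6.7), 10.4 kb from ZIM2. The nearest rescue summit to that was 413668 bp away and the nearest WT summit 413516 bp. ZDBF2 at 2q33, a paternally expressed gene with a zinc finger of DBF type, had 1 at 206323604 (4.22), 9.18 kb from the gene, in ORC2 deletion alone.

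PPP1R9A, which encodes the actin-binding neurabin, also lies at 7q21. It had sites that no pair of genotypes shared. ORC2 deletion had one inside the gene at 95247206 (15.9), the strongest of the sites held by ORC2 deletion alone, and one beyond it at 95335147 (1.35). Rescue had one at 95256854 (3.32), which lay 9648 bp from the nearest ORC2 deletion summit and was the only rescue summit near an imprinted gene without an ORC2 deletion partner. WT had one at 95199850 (1.32). TFPI2, a protease inhibitor at the other end of the domain, had a site in all 3 lists, with 11.1 at 93903154 in ORC2 deletion, 10.9 at 93902810 in rescue and 9.45 at 93903145 in WT. A second, with 9.08 at 93861478 in ORC2 deletion and 5.38 at 93861295 in WT, was not in rescue.

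MEST at 7q32, a paternally expressed gene with a hydrolase fold, had no summit in any list. Its nearest was 54.8 kb away in ORC2 deletion, just beyond the limit of 50 kb, with 4.87 at 130561282, whereas the summit of PEG3 lay just inside it, at 46.0 kb. In rescue it was 190 kb away and in WT 208 kb.

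L3MBTL1, a chromatin reader at 20q13, held 1 of the strongest sites of any imprinted gene. It had 40.1 at 43538132 in ORC2 deletion, 25.3 at 43538123 in rescue and 14.9 at 43538196 in WT. The promoter site beside the repeated unit had 4.8 at 43514156 in ORC2 deletion, 5.04 at 43514171 in rescue and 6.04 at 43514144 in WT. Another, at 43508659 (10.9), lay 962 bp from another L3MBTL1 start and was in ORC2 deletion alone. NNAT, a paternally expressed membrane protein gene, lies within BLCAP at 20q11, and the pair shared all their sites. Of these, 2 were in all 3 lists. The first had 6.59 at 37534771 in ORC2 deletion, 8.68 at 37534566 in rescue and 4.9 at 37534537 in WT. The other had 3.7 at 37564445 in ORC2 deletion, 7.19 at 37564399 in rescue and 6.43 at 37564517 in WT, so it was the weaker in ORC2 deletion and rescue and the stronger in WT. Another, at 37573235 (4.87), was in ORC2 deletion alone.

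At 8q24, KCNK9, a maternally expressed potassium leak channel, and TRAPPC9, a subunit of a vesicle-tethering complex, had 12 summits between them in ORC2 deletion, 9 in rescue and 8 in WT. The highest value of any ORC2 deletion summit near an imprinted gene was inside KCNK9, with 41.3 at 139647172, beside 15.6 at 139647175 in rescue and 13.4 at 139647205 in WT. Between the genes, a site with 7.11 at 139705849 in ORC2 deletion and 3.5 at 139706107 in rescue was not in WT. TRAPPC9 had 6 sites in all 3 lists. The highest in WT had 17.1 at 140467190 in ORC2 deletion, 11.5 at 140467442 in rescue and 19.5 at 140467195 in WT. The highest in ORC2 deletion had 19 at 140432281, beside 10.1 at 140432306 in rescue and 7.95 at 140432135 in WT. The 3 sites in ORC2 deletion alone were at 140469475 (8.27), 140200220 (4.03) and 140309970 (2.73).

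GRB10 at 7p12 encodes an adaptor that binds the insulin receptor, and it had 5 summits in ORC2 deletion, 4 in rescue and 2 in WT. Its strongest site was in all 3 lists, with 17.2 at 50633219 in ORC2 deletion, 7.8 at 50633333 in rescue and 5.18 at 50633071 in WT. ORC2 deletion and rescue, without WT, had a site at 50696795 (9.62) and 50696915 (3.63), and another at 50588942 (3.1) and 50588882 (3.16). ORC2 deletion alone had one at 50827224 (5.26).

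DIRAS3 at 1p31, a paternally expressed gene of a Ras-related tumour suppressor, had 3 sites. The strong one was in all 3 lists, with 35.9 at 68058066 in ORC2 deletion, 25.9 at 68058040 in rescue and 12.3 at 68057975 in WT. The other 2 were not in WT. They had 6.92 at 68010372 in ORC2 deletion and 5.53 at 68010356 in rescue, and 4.48 at 68028711 in ORC2 deletion and 4.44 at 68028665 in rescue. All 3 lay inside GNG12-AS1.

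PLAGL1 at 6q24, a zinc finger transcription factor expressed from the paternal copy, had 5 summits in ORC2 deletion, 3 in rescue and 3 in WT. Its strongest in ORC2 deletion and rescue had 17.1 at 143940149 in ORC2 deletion, 5.99 at 143940380 in rescue and 5.6 at 143940167 in WT. In WT its strongest was a site 40.4 kb beyond the gene, with 6.73 at 144104956 in ORC2 deletion, 4.33 at 144105091 in rescue and 6.51 at 144105019 in WT. A site 2039 bp from the nearest WT summit had 5.6 at 143942206 in ORC2 deletion and 3.53 at 143942478 in rescue. ORC2 deletion alone had one at 144064042 (1.58). IGF2R at 6q25, the receptor that clears IGF2, had a site in all 3 lists 26.7 kb beyond the gene, with 10.5 at 160138434 in ORC2 deletion, 7.82 at 160138242 in rescue and 8.74 at 160138435 in WT. Inside IGF2R, ORC2 deletion alone had sites at 160088620 (4.05) and 160103635 (3.28).

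NAP1L5 at 4q22, a gene related to nucleosome assembly proteins that lies within HERC3, was the gene outside 11p15 with fewer summits in ORC2 deletion than in WT, 2 against 3, and rescue had 1. Its strongest had 18.4 at 88659690 in ORC2 deletion, 10.1 at 88659679 in rescue and 6.72 at 88659630 in WT. The one WT held alone, 3.12 kb from NAP1L5 at 88700944, had 1.32, close to the lowest value of the WT list, 1.31. INPP5F at 10q26, an inositol phosphatase gene, had 3 sites in all 3 lists. The strongest had 18 at 119859787 in ORC2 deletion, 9.33 at 119859791 in rescue and 8.97 at 119859787 in WT. ORC2 deletion alone had a further one at 119849999 (4.23).

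Few of the summits lay at listed promoters. The RefSeq promoter table holds no chromosome 8 starts and covers only 23 of the imprinted genes, so promoter summits may be missed. Within 1 kb of its starts lay 6 of 58 ORC2 deletion summits near imprinted genes, 10.3% (4.83 to 20.8) beside 11.7% of the whole list. In rescue it was 2 of 33, 6.06% (1.68 to 19.6) beside 10.5%, and in WT 3 of 34, 8.82% (3.05 to 23) beside 12.3%. A site called in all 3 lists lay 910 bp from IGF2 in ORC2 deletion, 878 bp in rescue and 882 bp in WT. Its nearest listed start was that of INS, 10733 bp away, so it was not counted. Partner summits lay within 500 bp of each other by definition. The median distance was 63.5 bp over 38 ORC2 deletion summits with a WT partner, beside 61 bp in the whole list. It was 72.5 bp over 32 rescue summits with a WT partner, beside 62 bp. Over 41 rescue summits with an ORC2 deletion partner it was 60 bp, beside 58 bp.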

How the data were processed

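CTCF and IgG CUT&RUN libraries came from ORC2 deletion, ORC2 rescue and WT cells. Per the submitters' processing notes, FastQC 0.11.5, Bowtie2 2.2.9, SAMtools 1.12, MACS2 and the genome build hg38 were used. How peaks were called, duplicates handled and IgG used was not stated. In the deposited summit lists each line has the position of 1 summit and the −log10 of the authors' q, whose lowest values lie near 1.3, the −log10 of 0.05. A CTCF list is named by genotype alone and was taken as pooled. The authors' deposited up and down lists, with 9603 and 364 regions, hold other values only as region starts and ends.

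Summits were put on 1-based hg38 positions. Gene bodies came from a RefSeq table of GRCh38.p14, where 36 genes matched by symbol and 1, SLC22A18, by synonym (SLC67A1). A summit near several genes was counted once in totals. A partner was a summit of another list within 500 bp. An earlier account of these data used 100 bp, at which 1 site is often split. The genes and gene lists were chosen with earlier results of these data known. Sites named were each gene's strongest, those in the up or down list, and the 10 strongest gained or lost, with others added to complete a gene. A further sequence is not reported here. The repeated unit in L3MBTL1 was chosen after the windows were seen. With 1 list per genotype, counts and shares were described beside all features, without tests. Matching and window counting were first tested on simulated data. Software was Python 3.11.15 with NumPy 2.4.6, SciPy 1.17.1, pandas 2.3.3 and matplotlib 3.10.9. Alternatives were gene windows from the body alone to 100 kb, matching within 100 or 1000 bp, −log10 q minimums of 5 and 10, lists of equal length and leaving out 11p15.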

Additional observations from a re-analysis of the deposited data

How the results depend on the processing

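Of 72 values recomputed under other settings, 53 stayed close to the reported ones and 19 moved. Close meant inside the Wilson interval of the reported share, or within a fixed fold of the reported ratio or count. These limits are wide, so close does not mean equal. Equal list lengths, 19044 summits each, took the ORC2 deletion over WT ratio to 0.952 (1.0 over the whole lists), the share of ORC2 deletion summits without a WT partner to 25% (whole lists 25.3%), the share of WT summits without an ORC2 deletion partner to 28.6% (25.3%), the share of gained summits with a rescue summit to 50.0% and the genes with a summit in ORC2 deletion and none in WT to 3. A −log10 q of at least 10 took the ORC2 deletion over WT ratio to 3.38 (2.76), the rescue over WT ratio to 1.62 (1.26), the ORC2 deletion share to 70.4% (66.8%), the WT share to 0.0% (8.35%), the rescue share without a WT partner to 46.2% and the genes in all 3 lists to 6. Only 8 WT summits near imprinted genes passed that minimum. The minimum was the same for each list, although the values are not scaled between lists. Matching within 100 bp took the ORC2 deletion share to 65.7%, the WT share to 42.9% and the rescue share to 57.1%. In the whole lists 11548 of 31112 ORC2 deletion summits and 9729 of 20810 rescue summits had a WT summit within 100 bp. Gene bodies alone left 8 of 27 ORC2 deletion summits in the authors' up list, 9 genes in all 3 lists and 4 genes in ORC2 deletion and not WT. Windows of 10 kb and 100 kb left 12 of 41 and 36 of 96 in the up list, which holds 30.9% of the whole deletion list. No value over all features was computed at these settings for the gene counts, the 50.0% or the 46.2%. Those moves are therefore not read as traits of imprinted genes. Whole domain spans, a choice made after seeing the data, gave ratios of 1.65 and 1.0. Equal list lengths set the ratios of the whole lists to 1.0 by construction, and the cause of the other moves was not tested. No paired analysis was possible because the CTCF lists carry no replicate numbers, 1 list standing for a genotype, and for the same reason no replicate could be left out.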

Other observations

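A list of 39 other genes was taken in or beside the same domains, except SMOC2. That gene starts at 168441184 on chromosome 6, far beyond IGF2R, which ends at 160111504. SMOC2 had 2 summits in ORC2 deletion, 2 in rescue and 0 in WT, which are included below. Of the 39, 28 had a summit within 50 kb in ORC2 deletion, 71.8% beside 84.4% of protein-coding genes. In rescue it was 22, 56.4% beside 76.8%, and in WT 21, 53.8% beside 75.8%. Their windows held 58 summits in ORC2 deletion, 36 in rescue and 31 in WT, of which 24, 14 and 15 were also near a listed imprinted gene. The authors' deposited up list held 19 of the 58 ORC2 deletion summits, 32.8% beside 30.9% of the whole list, and the down list 0 of the 31 WT summits, beside 1.92%. The highest ORC2 deletion values were 39.9 for INS and TH, at the site beside IGF2, 29.0 at 206164351 near GPR1, the neighbour of ZDBF2, and 28.6 at 51163081 in COBL, the neighbour of GRB10. In each case rescue and WT had a summit within 500 bp.

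The 14 genes for factors that set or keep imprints had 46 summits in ORC2 deletion, 29 in rescue and 26 in WT. At least 1 stood near 10 of the genes in ORC2 deletion, 71.4% beside 84.4% of protein-coding genes, 10 in rescue, 71.4% beside 76.8%, and 8 in WT, 57.1% beside 75.8%. The authors' deposited up list held 16 of the 46 ORC2 deletion summits, 34.8% beside 30.9% of the whole list, and the down list 1 of the 26 WT summits, 3.85% beside 1.92%. These up shares lie near that of the whole list. The strongest ORC2 deletion summits were 63.7 at 67521475 near CTCF itself, 26.8 at 57514310 in CTCFL, its germline paralog, 23.9 at 56066455 near NLRP5, an oocyte protein, and 22.1 at 4872701 near UHRF1, which recruits the maintenance methyltransferase. Rescue and WT had a summit within 500 bp of each of these 4.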
